A study of Homo sapiens with 12 samples.

Results

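The 9 genes described here encode enzymes of the citric acid cycle and their isocitrate dehydrogenase relatives: CS, IDH1, IDH2, IDH3A, IDH3B, IDH3G, SUCLG1, SUCLG2 and FH. They were chosen by symbol, through the gene identifiers of the deposited count table. The rule used no measured value, but earlier results of these data were known when the genes were chosen. All 9 were among the 70116 genes of the table and all 9 were among the 16197 genes that passed the filter on low counts. Transcripts were measured by poly(A) RNA sequencing in MiaPaCa-2, a human line established from a pancreatic cancer, which had received siRNAs (small interfering RNAs that lead to the breakdown of transcripts they match). The 4 groups of 3 libraries each were siControl (a control siRNA), siSLC25A1 (the mitochondrial citrate carrier), siACLY (ATP citrate lyase, which splits cytosolic citrate) and siACO1 (the cytosolic aconitase). All groups were transfected cells of this single line. The labels do not give the siRNA sequences, the time after transfection or the nutrient condition, and they do not say whether the 3 replicates were separate cultures, so the p-values measure the spread between these samples, which may be technical.

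In the cycle, citrate synthase (CS) joins acetyl-CoA and oxaloacetate to citrate, which is turned into isocitrate and then oxidised to 2-oxoglutarate by isocitrate dehydrogenases. The mitochondrial NAD-dependent enzyme is a complex of a catalytic subunit (IDH3A) with IDH3B and IDH3G, while IDH1 in the cytosol and peroxisome and IDH2 in the mitochondrion use NADP and can also run in the reverse direction. Succinate-CoA ligase pairs a shared subunit (SUCLG1) with either a GTP-forming (SUCLG2) or an ATP-forming (SUCLA2) partner, and fumarate hydratase (FH) turns fumarate into malate. The comparisons ask how these transcripts stood when a step that exports or uses citrate outside the mitochondrion was depleted.

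The upstream sequences of the members were searched on both strands, within 250 bases before each start, for 4 short motifs of regulators of mitochondrial and lipid genes. The 9 genes had 10 windows, since IDH1 had a pair of starts, and the sequences are those of RefSeq on GRCh38.p14. The ETS core CCGGAA, of the type bound by GABPA, was in 4 of the 10 windows against 14.5% of 35116 windows of all genes. The NRF1-type motif GCGCNNGCGC was in 2 of 10 windows against 7.16% of all. The ESRRA-type motif AAGGTCA (3.44% of all windows) and the SREBP-type motif TCACNCCAC (0.883%) were in none of the 10 windows. The other cycle genes listed below had 8 windows. Of these, 5 held the ETS core, 3 the NRF1 type, 2 the ESRRA type and 0 the SREBP type, so the matches are not particular to the members. The matches lay before the RefSeq starts of CS and of all 3 IDH3 subunit genes. They are shown because those subunits moved apart in the measurements that follow. Each line is a stretch of 30 bases, 5′ to 3′ on the gene's strand, with the match in capitals; TTCCGG is CCGGAA on the other strand. The windows of CS and IDH3G and the NRF1-type window of IDH3A overlap, at least in part, exons that GENCODE 29 annotates for the same gene, and those of IDH3G also overlap exons of SSR4. The match before CS lies outside the annotated gene. The IDH3A windows lie inside the gene that GENCODE 29 annotates (78131498 to 78171949), downstream of its annotated start. A match describes the letters only and was not tested as a binding site.
CS, ETS core, chr12:56300382-56300411, minus strand, 69 to 64 bases before the start: ggcgggctcgggTTCCGGccagtgggcggg
IDH3A, ETS core, chr15:78149163-78149192, plus strand, 187 to 182 bases before the start: cggcccctcagtTTCCGGgttcgcctggcg
IDH3A, NRF1 type, chr15:78149332-78149361, plus strand, 10 to 1 bases before the start: gggctccgagcgtggggtggGCGCTTGCGC
IDH3B, ETS core, chr20:2664239-2664268, minus strand, 40 to 35 bases before the start: actcagtacaggCCGGAAgtcggggtacgg
IDH3G, NRF1 type, chrX:153794418-153794447, minus strand, 62 to 53 bases before the start: gtgcgaccgcGCGCGTGCGCagtaccgggt
IDH3G, ETS core, chrX:153794450-153794479, minus strand, 92 to 87 bases before the start: gtgctctaggcgCCGGAAgggggcgtgaat

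Library totals ran from 24159424 to 43792811 counts, and the members had between 746 and 10792 counts in a library, for which counting error alone is 3.66% and 0.963%. Levels are given as CPM (counts scaled to a common library total) with TMM factors, which correct for differences in library composition. The targeted transcripts fell to 8.78% of siControl for SLC25A1 in siSLC25A1, 7.25% for ACLY in siACLY and 3.75% for ACO1 in siACO1, with all 3 libraries low in each case. Of the markers of the line, KRT8 (group means 1280 to 2410 CPM), KRT18 (774 to 1320 CPM), KRT19 (52 to 141 CPM) and VIM (3560 to 4560 CPM) were present, with the lowest means of the 3 keratins in siACO1, whereas the epithelial markers EPCAM and CDH1 had 0 to 2 counts per library. Acinar, immune, fibroblast and endothelial markers had at most 9 counts per library. The third siACO1 library stood apart: its log2 deviations from its replicates had an SD of 0.176 against 0.093 to 0.129 in the other 11, and they correlated with exon length (Spearman's rho -0.52 over 9831 genes; genes are not independent replicates). Log2 fold changes of the 9 members in siACO1 against siControl are therefore given with and without it, and those of other genes where a call changed. SLC25A1 was not called in siACO1 (-0.09, edgeR adjusted p 0.141), but was called without replicate 3 (-0.15, adjusted p 0.00415). ACO1 was called higher in siACLY (0.17, edgeR adjusted p 0.0239). That call was lost with no filter on low counts and without siACLY replicate 1 or 2 or siControl replicate 1 or 2.

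Between 3 and 5 of the 9 transcripts changed in each knockdown, and most changes were small. Calls are those of edgeR's quasi-likelihood test at a threshold of 0.05, with Benjamini-Hochberg adjustment over all 16197 genes. In siSLC25A1, 4 of 9 members were called, IDH2 higher and CS, IDH1 and IDH3B lower, where 19.6% of all tested genes were called, 10.3% higher and 9.27% lower. In siACLY, 5 of 9 were called, IDH2 and IDH3G higher and CS, IDH3B and SUCLG1 lower, against 36.7% of all genes, 18.4% higher and 18.3% lower. In siACO1, 3 of 9 were called, CS, IDH3A and SUCLG1, all lower, against 37.1% of all genes, 17.8% higher and 19.3% lower. With library totals in place of TMM factors, the share of higher genes among all those called moved from 50.1% to 61% for siACLY and, for siACO1, from 47.9% to 59.5%. The libraries of 6, 5 and 4 members did not overlap siControl in siSLC25A1, siACLY and siACO1, beside 37.1%, 50.5% and 46.3% of all genes. The members' median absolute log2 fold changes were 0.13, 0.13 and 0.08 in siSLC25A1, siACLY and siACO1, beside 0.15, 0.20 and 0.21 over all tested genes. CS was the member called in all 3 knockdowns, and FH and SUCLG2 were called in none. The count of 5 in siACLY was 3 without siControl replicate 3 or without siACLY replicate 2, and the count of 3 in siACO1 was 5 without siACO1 replicate 3.

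**Figure D1:**
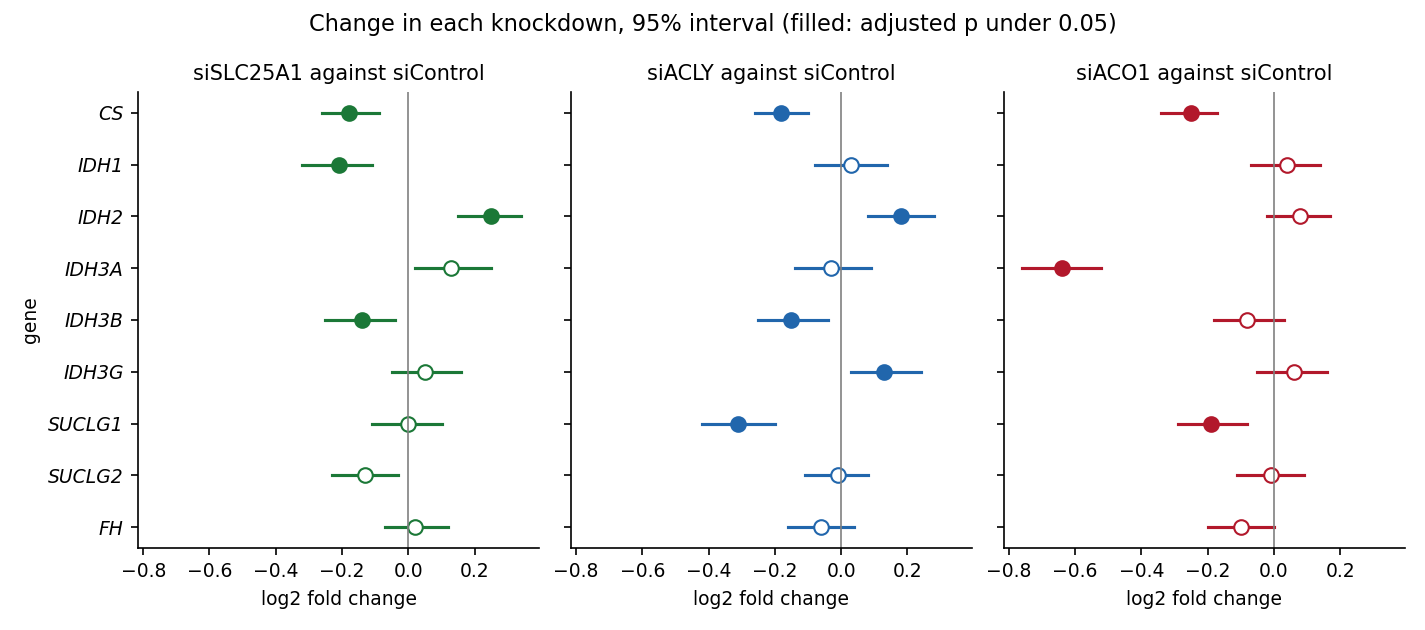
Log2 fold change of each of the 9 genes against siControl (x axis) in siSLC25A1, siACLY and siACO1, with 95% confidence intervals from the edgeR fit and filled points where the adjusted p was under 0.05. CS lies below 0 in all 3 panels, and the point farthest from 0 is IDH3A in siACO1 at -0.64.

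The summed level of the 9 transcripts was 1070 ± 3.97 CPM (SD, n = 3) in siControl, 1018 ± 21.9 in siSLC25A1, 1018 ± 10.6 in siACLY and 992 ± 44.8 in siACO1. The siControl sums lay between 1067 and 1075 CPM, above all 9 knockdown sums, of which the highest, 1044 CPM, was that of siACO1 replicate 3. The largest part of each sum was CS, with means of 274, 242, 241 and 230 CPM in siControl, siSLC25A1, siACLY and siACO1. The sum without CS was not examined. Bulk RNA cannot tell fewer cells with a transcript from less of it per cell. Per kilobase of the principal transcript, the siControl order was IDH3B (96 CPM per kb), CS (92.1), FH (67.6), SUCLG1 (62.9), IDH1 (55.3), IDH3G and SUCLG2 (47.4 each), IDH2 (27) and IDH3A (10.7). The neighbours IDH3B and CS, and IDH3G and SUCLG2, overlapped between libraries, and the other neighbours did not. The place of IDH3A is uncertain, because 63.2% of its principal transcript overlaps ACSBG1 and CIB2 on the opposite strand.

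CS, which forms citrate (ENSG00000062485.19, chromosome 12, 56271699 to 56300392, minus strand; all gene coordinates are GENCODE 29 on GRCh38), was lower in every knockdown. The siControl libraries were at 282, 269 and 270 CPM. The siSLC25A1 libraries were at 253, 236 and 237 CPM, the siACLY libraries at 243, 248 and 233 CPM, and the siACO1 libraries at 226, 227 and 237 CPM. All 9 knockdown libraries were below all 3 siControl libraries. The log2 fold change was -0.18 in siSLC25A1 (SE 0.04, edgeR adjusted p 0.00186), -0.18 in siACLY (SE 0.04, adjusted p 0.000701) and -0.25 in siACO1 (SE 0.04, adjusted p 1.09e-05), or 88.4%, 88.2% and 83.9% of siControl. Without siACO1 replicate 3 the value in siACO1 was -0.28. These 3 comparisons share the siControl libraries. In the comparisons of knockdowns with each other CS was not called. Of the 31-base stretches of CS transcripts, 16.3% also occur in transcripts of other genes.

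The cytosolic IDH1 and the mitochondrial IDH2, which catalyse the same NADP-dependent reaction, moved in opposite directions in siSLC25A1. IDH1 (ENSG00000138413.14, chromosome 2, 208236227 to 208266074, minus strand) was at 132, 137 and 136 CPM in siControl and at 104, 123 and 123 CPM in siSLC25A1, so the groups did not overlap. Its log2 fold change there was -0.21 (SE 0.05, adjusted p 0.00359), and without siSLC25A1 replicate 1, the lowest library, it was -0.13 and still called. IDH1 was at 133, 142 and 139 CPM in siACLY and at 135, 135 and 145 CPM in siACO1, where both groups overlapped siControl. The log2 fold changes of 0.03 (95% interval -0.08 to 0.14, adjusted p 0.69) and 0.04 (-0.07 to 0.14, adjusted p 0.625) were not called. The value in siACO1 was 0.00 without siACO1 replicate 3.

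IDH2 (ENSG00000182054.10, chromosome 15, 90083045 to 90102504, minus strand) was at 70.3, 76.5 and 71.2 CPM in siControl. It was at 90.2, 87.4 and 80.9 CPM in siSLC25A1 and at 83, 81.8 and 82 CPM in siACLY, and each of these 6 libraries was above all siControl libraries. IDH2 rose in siSLC25A1 (log2 fold change 0.25, SE 0.05, adjusted p 0.000314, 119% of siControl) and in siACLY (0.18, SE 0.05, adjusted p 0.00347, 113%). In siACO1 it was at 76.5, 75.9 and 77.4 CPM, within reach of the highest siControl library, and its log2 fold change of 0.08 was not called (95% interval -0.02 to 0.17, adjusted p 0.222), nor was that of 0.07 without siACO1 replicate 3. With all libraries it was 0.12 and called when library totals replaced TMM factors (adjusted p 0.0398).

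The NADP-dependent pair was also compared as a ratio within each library, which needs no scaling between libraries. The ratio of IDH1 to IDH2 counts was 1.88, 1.79 and 1.91 in siControl and 1.15, 1.41 and 1.52 in siSLC25A1. It was 1.6, 1.73 and 1.69 in siACLY and 1.77, 1.78 and 1.87 in siACO1. The siSLC25A1 ratios were below all other libraries, and those of siACLY were below siControl as well. The difference in mean log2 ratio from siControl was -0.46 in siSLC25A1, -0.15 in siACLY and -0.04 in siACO1. The one-way F statistic of the log2 ratios was compared over the 15400 assignments of libraries to the 4 groups. This exact permutation test gave an exact permutation p = 0.000325, or 0.000406 adjusted over the 5 ratios tested.

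The subunits of the NAD-dependent enzyme did not move together. IDH3A, the catalytic subunit (ENSG00000166411.14, chromosome 15, 78131498 to 78171949, plus strand), fell in siACO1 and had the widest range over the groups of the 9 members, 0.77 between the highest and lowest mean log2 level against a median of 0.43 over all tested genes. It was at 42.8, 43.7 and 46.4 CPM in siControl, at 50.4, 47.9 and 47.3 CPM in siSLC25A1, at 42.9, 41.4 and 46 CPM in siACLY and at 30, 28 and 27.2 CPM in siACO1. The siACO1 libraries were below all other libraries, and the siSLC25A1 libraries were the 3 highest.

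The log2 fold change of IDH3A in siACO1 was -0.64 (SE 0.06, 95% interval -0.76 to -0.52, adjusted p 6.05e-10), or 64.1% of siControl. Of the 16197 genes tested, 5.38% had a log2 fold change at or below that value. Without siACO1 replicate 3 it was -0.61 (adjusted p 1.4e-10). In siSLC25A1 the value was 0.13 (SE 0.06, adjusted p 0.101) and in siACLY -0.03 (SE 0.06, adjusted p 0.732), neither called. Of the exon bases of IDH3A, 38.9% overlap ACSBG1 or CIB2 on the opposite strand, and whether the counting used strand is not given in the sources used here. ACSBG1 had 0 to 18 counts in a library, and CIB2 changed in siACO1 by -0.13 (adjusted p 0.246), which was not called. The counts of ACSBG1 are themselves uncertain, since 31.7% of its exon bases overlap IDH3A. The mean levels of KRT8 (2280 CPM in siControl, 1280 CPM in siACO1), KRT18 (1320 and 774 CPM) and KRT19 (88.5 and 52 CPM), keratins of epithelial cells, were also lower in siACO1, and their part in the result was not tested.

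IDH3B, a regulatory subunit (ENSG00000101365.21, chromosome 20, 2658395 to 2664219, minus strand), was at 148, 143 and 154 CPM in siControl. It was at 138, 131 and 133 CPM in siSLC25A1 and at 138, 130 and 134 CPM in siACLY, below siControl in all 6 libraries. The falls of -0.14 in siSLC25A1 (SE 0.05, adjusted p 0.0408) and -0.15 in siACLY (SE 0.05, adjusted p 0.0209) were close to the threshold. In siSLC25A1 the call was lost in DESeq2 (adjusted p 0.0513) and without siControl replicate 1 (-0.15) or 3 (-0.12), siSLC25A1 replicate 2 (-0.13) or 3 (-0.14) or siACLY replicate 3 (-0.14). In siACLY it was lost without siControl replicate 3 or siACLY replicate 2 (-0.13 each) and with library totals (-0.10). In siACO1 the libraries were at 132, 134 and 155 CPM, the last being replicate 3. The log2 fold change there was -0.08 (adjusted p 0.247) with that library and -0.16 (adjusted p 0.00216) without it.

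IDH3G, the other regulatory subunit (ENSG00000067829.20, chromosome X, 153785766 to 153794523, minus strand), was at 71.5, 67.8 and 71.9 CPM in siControl and at 79.7, 77 and 74.8 CPM in siACLY, with no overlap. The rise of 0.13 in siACLY (SE 0.05, adjusted p 0.0389) was lost in DESeq2 (adjusted p 0.0667), with no filter on low counts (0.13), and without 8 of the 12 libraries in turn: siControl replicate 1 (0.14), 2 (0.10) or 3 (0.14), siSLC25A1 replicate 2 or 3 (0.13 each), siACLY replicate 1 (0.10) or 2 (0.13), or siACO1 replicate 1 (0.13). IDH3G was at 76.9, 70.4 and 71.9 CPM in siSLC25A1 and at 70.4, 70.7 and 78.5 CPM in siACO1, both overlapping siControl. The log2 fold changes of 0.05 (adjusted p 0.509) and 0.06 (adjusted p 0.406) were not called. The value in siACO1 was 0.00 without siACO1 replicate 3. Exons of SSR4 on the opposite strand overlap 10.2% of the exon bases of IDH3G and 18.7% of its principal transcript. SSR4 changed by -0.02 in siSLC25A1, -0.03 in siACLY and 0.16 in siACO1 (edgeR adjusted p 0.0571), none of them called. The value in siACO1 was called with library totals (0.21), either other filter (0.17 and 0.16), a replicate block (0.15) and without siACO1 replicate 2 (0.23).

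**Figure D2:**
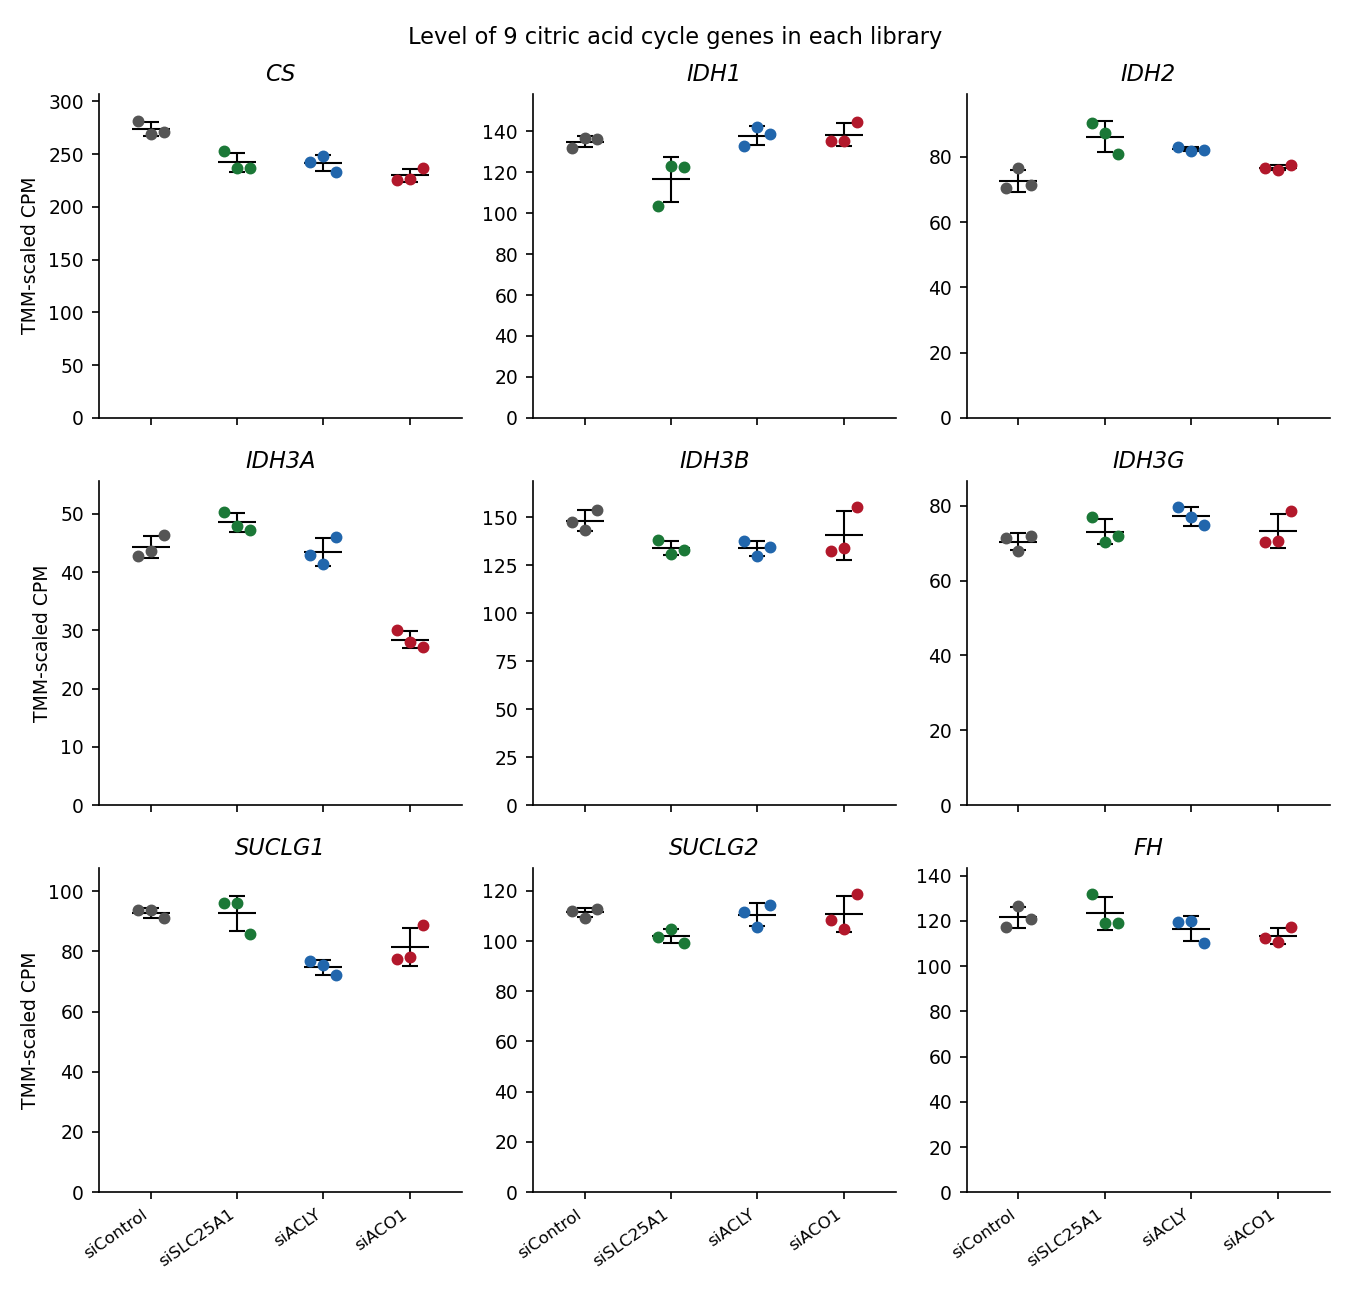
TMM-scaled CPM (y axis, from 0) of the 9 genes in each of the 12 libraries by group, with the group mean and SD (n = 3). The siACO1 libraries of IDH3A, at 27.2 to 30 CPM, lie below every other library of that gene, and the third siACO1 point is the highest of its group in every panel except that of IDH3A.

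Ratios between the 3 subunits within a library differed between the groups. The ratio of IDH3A to IDH3B counts was 0.29, 0.305 and 0.302 in siControl, 0.365, 0.365 and 0.355 in siSLC25A1, 0.312, 0.319 and 0.342 in siACLY and 0.227, 0.209 and 0.175 in siACO1. The siSLC25A1 ratios were the highest and the siACO1 ratios the lowest, with no overlap with any other group. The mean log2 ratios stood 0.28 above siControl in siSLC25A1, 0.12 above it in siACLY and at -0.56 relative to it in siACO1. The exact permutation p was 6.49e-05, the smallest this design can give (adjusted 0.000216). The lowest siACO1 ratio, 0.175, was that of replicate 3. In that library IDH3A (6832 exon bases) stood -0.09 and IDH3B (2567 exon bases) 0.22 from replicates 1 and 2 on the log2 scale. The part of its length trend in the ratio was not tested. The group means spanned 0.84, and 0.73 to 0.92 without each library in turn. The ratios are of read counts, not of molecules, since the genes differ in length.

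The ratio of IDH3A to IDH3G was 0.629 in siControl (geometric mean), 0.664 in siSLC25A1, 0.563 in siACLY and 0.388 in siACO1, with an exact permutation p of 0.000714 (adjusted 0.000714). Its siACO1 libraries were at 0.426, 0.396 and 0.347, the last being replicate 3. The mean log2 ratios of the groups spanned 0.77, and 0.69 to 0.84 without each library in turn. The ratio of IDH3B to IDH3G had a mean of 2.11 in siControl against 1.84 in siSLC25A1, 1.74 in siACLY and 1.92 in siACO1. The 3 siControl libraries, at 2.06 to 2.14, were above all 9 knockdown libraries, at 1.68 to 1.98 (exact permutation p = 0.00013, adjusted 0.000216). The IDH3B to IDH3G ratio was thus below siControl in siACO1 too, although neither gene was called there alone with all libraries. Without siACO1 replicate 3, IDH3B was called lower there (-0.16, edgeR adjusted p 0.00216).

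**Figure D3:**
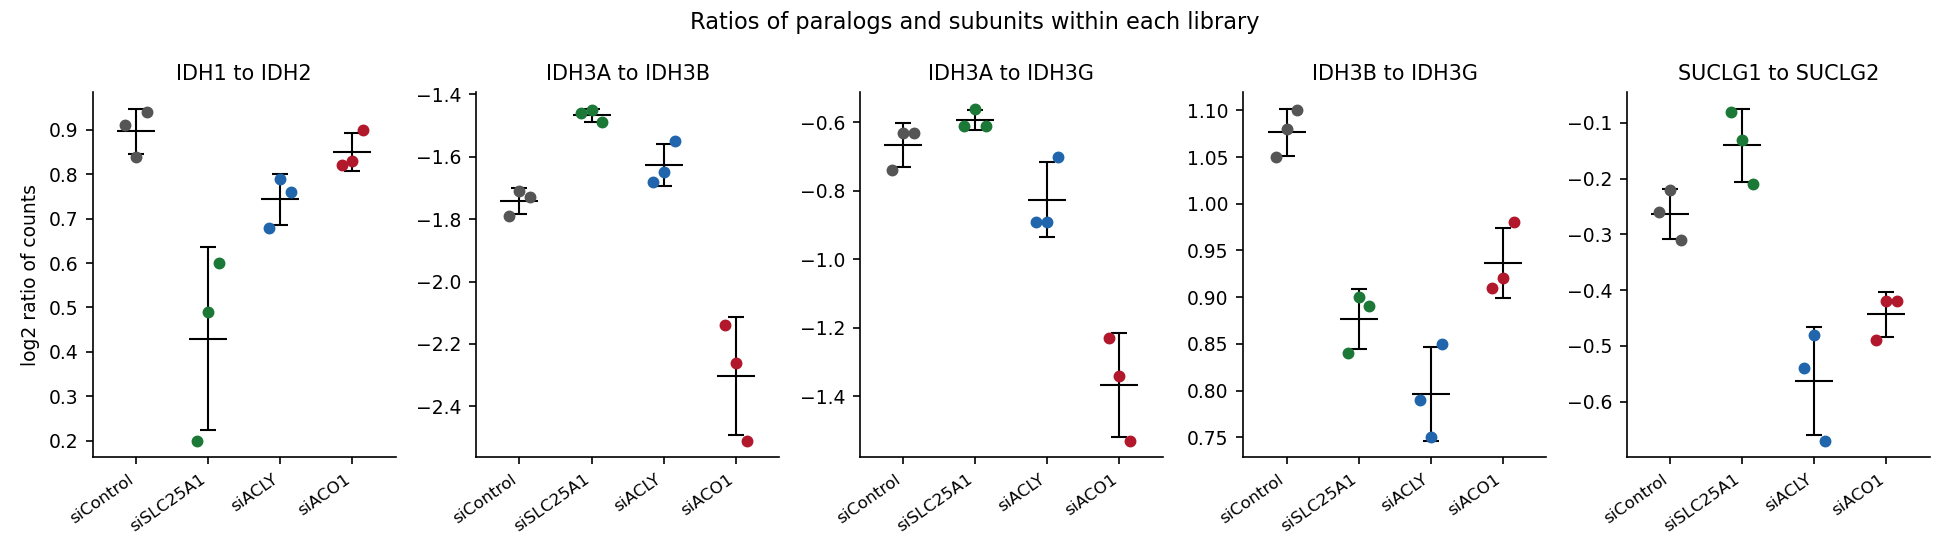
Log2 ratio of counts (y axis, scaled separately in each panel) between related members in each library, with the group mean and SD (n = 3). The IDH1 to IDH2 ratio is lowest in the 3 siSLC25A1 libraries, the IDH3A to IDH3B and IDH3A to IDH3G ratios are lowest in siACO1, and the SUCLG1 to SUCLG2 ratio is lowest on average in siACLY.

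Of the succinate-CoA ligase genes, the shared subunit fell while its GTP-forming partner was not called. SUCLG1 (ENSG00000163541.12, chromosome 2, 84423523 to 84460045, minus strand) was at 93.7, 93.7 and 90.9 CPM in siControl, at 76.7, 75.4 and 72 CPM in siACLY and at 77.5, 78.1 and 88.6 CPM in siACO1. All 6 of these knockdown libraries were below siControl, the nearest being siACO1 replicate 3. The log2 fold change was -0.31 in siACLY (SE 0.05, adjusted p 2.38e-05, 80.6% of siControl) and -0.19 in siACO1 (SE 0.05, adjusted p 0.00524, 87.8%), or -0.26 in siACO1 without replicate 3. In siSLC25A1 it was at 95.9, 96 and 85.8 CPM, on both sides of siControl, with a log2 fold change of 0.00 (95% interval -0.11 to 0.10).

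SUCLG2 (ENSG00000172340.15, chromosome 3, 67360460 to 67654614, minus strand) was at 112, 109 and 113 CPM in siControl and at 101, 105 and 99.4 CPM in siSLC25A1, where the groups did not overlap. The log2 fold change of -0.13 in siSLC25A1 missed the threshold (SE 0.05, adjusted p 0.0534). It was past it with the fit of these 2 groups alone (adjusted p 0.0131), with library totals (-0.12), with at least 10 counts required in each library (-0.13), with the replicate number as a block (adjusted p 0.0444), and without siACO1 replicate 2 or 3 (-0.13 each). SUCLG2 was at 112, 105 and 114 CPM in siACLY and at 108, 105 and 119 CPM in siACO1, with a log2 fold change of -0.01 in both (adjusted p 0.872 and 0.901). Without siACO1 replicate 3 the value in siACO1 was -0.07 (adjusted p 0.236). The ratio of SUCLG1 to SUCLG2 counts had a geometric mean of 0.832 in siControl, 0.907 in siSLC25A1, 0.676 in siACLY and 0.735 in siACO1. Each knockdown was apart from siControl in all libraries (exact permutation p = 0.00013 over the 4 groups, adjusted 0.000216). SUCLG2 shares 18.7% of its 31-base stretches with 2 pseudogenes.

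FH (ENSG00000091483.8, chromosome 1, 241497603 to 241519761, minus strand) had the narrowest range over the 4 groups, 0.12 on the log2 scale. It was at 117, 127 and 121 CPM in siControl, at 132, 119 and 119 CPM in siSLC25A1, at 120, 120 and 110 CPM in siACLY and at 112, 110 and 117 CPM in siACO1. The log2 fold changes of 0.02 (adjusted p 0.796), -0.06 (adjusted p 0.358) and -0.10 (adjusted p 0.0983) were not called. Without siACO1 replicate 3 the value in siACO1 was -0.13 and called (adjusted p 0.0264).

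Comparisons of 1 knockdown with another tested whether their effects differed. Between siSLC25A1 and siACO1, 6 of 9 members were called, against 42.1% of all genes, 21.8% higher in siSLC25A1 and 20.3% lower. Libraries of 5 members did not overlap, beside 48% of all genes. IDH3A (log2 difference 0.77, SE 0.06, adjusted p 8.64e-12), IDH2 (0.17, adjusted p 0.00484), SUCLG1 (0.18, adjusted p 0.00562, with overlapping libraries) and FH (0.12, adjusted p 0.0383) were higher in siSLC25A1. IDH1 (-0.25, adjusted p 0.000288) and SUCLG2 (-0.12, adjusted p 0.0435) were lower. The FH call was lost without siACO1 replicate 1 (0.12) or 2 (0.11) or siSLC25A1 replicate 1 (0.07), with library totals (0.08), with either other filter (0.11 and 0.12) and with these groups alone (0.12). The SUCLG2 call was lost without any 1 library other than siSLC25A1 replicate 2 and siACO1 replicate 2, with values from -0.13 to -0.06, the last without siACO1 replicate 3, in DESeq2 (-0.11, adjusted p 0.0707), with median-of-ratios factors (-0.11, adjusted p 0.0545), with no filter on low counts (-0.13, adjusted p 0.0645) and with these groups alone (-0.12, adjusted p 0.0994).

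Between siSLC25A1 and siACLY, 3 of 9 members were called, against 33.8% of all genes, 17.5% higher in siSLC25A1 and 16.3% lower. Libraries of 4 members did not overlap, beside 46.5% of all genes. With library totals the share of higher genes among all those called moved from 51.8% to 41% here and from 51.8% to 42.2% between siSLC25A1 and siACO1. SUCLG1 was higher in siSLC25A1 (0.31, SE 0.05, adjusted p 3.54e-05) and IDH1 was lower (-0.24, SE 0.05, adjusted p 0.000541). IDH3A was higher (0.16, SE 0.06, adjusted p 0.0278), a call that was lost without siSLC25A1 replicate 1 (0.13) or siACLY replicate 1 (0.16) or 2 (0.14), with no filter on low counts (0.16) and with library totals (0.12). The difference in IDH1 was -0.16 and still called without siSLC25A1 replicate 1. Between siACLY and siACO1, IDH3A alone was called (0.61 higher in siACLY, SE 0.06, adjusted p 9.98e-10), against 42.1% of all genes, 21.4% higher in siACLY and 20.7% lower. Libraries of 3 members did not overlap, beside 49% of all genes. A total of 2 members were called there without any 1 of the 3 siACO1 libraries or with library totals. IDH3A was therefore lower in siACO1 than in each of the other knockdowns, and IDH1 was lower in siSLC25A1 than in each of the others.

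The other 9 genes of the cycle that were listed encode subunits of the 2-oxoglutarate dehydrogenase complex (OGDH, DLST, DLD), the ATP-forming succinate-CoA ligase subunit (SUCLA2), succinate dehydrogenase (SDHA, SDHB, SDHC, SDHD) and malate dehydrogenase (MDH2). All 9 were tested. In siSLC25A1, 5 were called, DLST higher (log2 fold change 0.20) and DLD (-0.30), SUCLA2 (-0.16), SDHD (-0.27) and MDH2 (-0.25) lower. SDHD is uncertain, since 21.2% of its 31-base stretches occur in other genes, a pseudogene among them. In siACLY, 3 were called, OGDH higher (0.21) and SUCLA2 (-0.35) and MDH2 (-0.17) lower. In siACO1, 4 were called, SUCLA2 higher (0.19) and OGDH (-0.14), SDHA (-0.27) and MDH2 (-0.13) lower. MDH2, like CS, was lower in all 3 knockdowns. The list's median log2 fold changes were -0.04, -0.09 and -0.10, beside 0.00, 0.01 and 0.01 over all tested genes. The shares called over all genes were 19.6%, 36.7% and 37.1%, so the list's counts of 3 and 4 of 9 in siACLY and siACO1 are near the background.

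SUCLA2 and SUCLG2 compete for SUCLG1, and of these partners SUCLA2 was called against siControl, lower in siSLC25A1 and siACLY and higher in siACO1, while SUCLG2 was not; whether the partners' changes differed was not tested. SUCLA2 had mean levels of 47 CPM in siControl, 42.1 CPM in siSLC25A1, 36.8 CPM in siACLY and 53.7 CPM in siACO1. Its call in siSLC25A1 was lost in DESeq2 (adjusted p 0.0531), with either other scaling (-0.15 each), with no filter on low counts (-0.17), and without any 1 of 8 libraries: siControl replicate 1 (-0.15), 2 (-0.17) or 3 (-0.15), siSLC25A1 replicate 2 (-0.14) or 3 (-0.12), siACLY replicate 1 or 2 (-0.16 each) or siACO1 replicate 1 (-0.16). The siACO1 count of 4 was 2 with library totals, under which MDH2 (-0.08) and OGDH (-0.09) were not called. Without siACO1 replicate 3 it was 8 of 9, 7 of them lower, against 37.3% of all genes, with DLST (-0.13), DLD (-0.12), SDHB (-0.12) and SDHD (-0.18) called in addition. MDH2 in siACO1 was not called without siACO1 replicate 1 (-0.11) or 2 (-0.10) or siControl replicate 3 (-0.12).

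**Figure D4:**
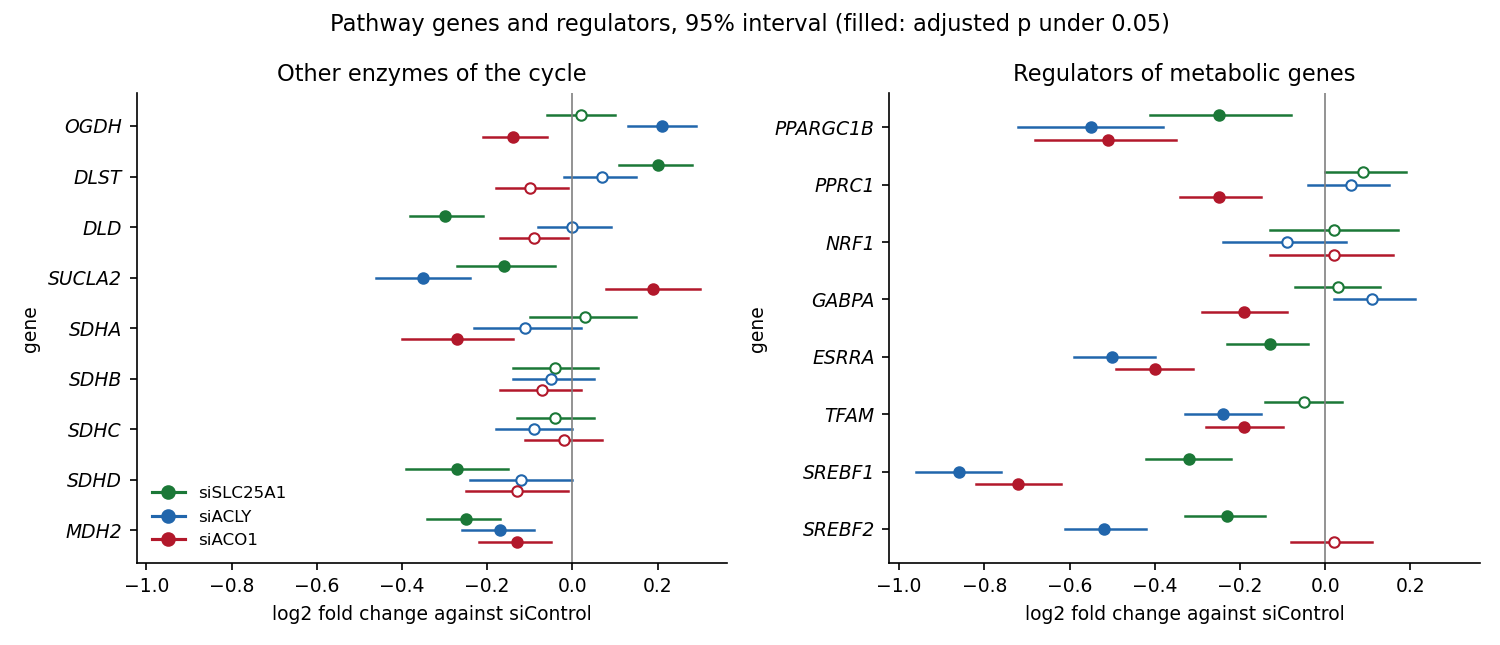
Log2 fold change against siControl (x axis) of the other cycle genes (left) and of the 8 regulators tested (right), with 95% confidence intervals and filled points where the edgeR adjusted p was under 0.05. MDH2 is below 0 with a filled point in all 3 knockdowns, and every filled point among the regulators is below 0.

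Of 9 listed regulators of mitochondrial and lipid genes, 8 were tested, and PPARGC1A had 0 to 2 counts per library. Every call in this list was a fall: 4 of 8 genes in siSLC25A1, 5 in siACLY and 6 in siACO1, beside 9.27%, 18.3% and 19.3% of all genes called lower (19.6%, 36.7% and 37.1% called in either direction). PPARGC1B, a coactivator of mitochondrial genes, fell by 0.25, 0.55 and 0.51 on the log2 scale in siSLC25A1, siACLY and siACO1. ESRRA, a nuclear receptor that works with it, fell by 0.13, 0.50 and 0.40. SREBF1, a regulator of fatty acid synthesis genes, fell by 0.32, 0.86 and 0.72, and its mean levels were 233 CPM in siControl and 187, 129 and 142 CPM in the knockdowns. SREBF2, which controls cholesterol synthesis genes, fell in siSLC25A1 (-0.23) and siACLY (-0.52) but was not called in siACO1 (0.02, edgeR adjusted p 0.822). NRF1, after which a searched motif is named, was called in no knockdown, at 0.02 in siSLC25A1, -0.09 in siACLY and 0.02 in siACO1.

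TFAM, which maintains and transcribes mitochondrial DNA, fell in siACLY (-0.24) and siACO1 (-0.19). PPRC1 (-0.25), a relative of PPARGC1B, and GABPA (-0.19), an ETS factor, fell in siACO1. Without siACO1 replicate 3 the same regulators were called in siACO1, with PPARGC1B at -0.41 and PPRC1 at -0.19. The PPARGC1B call in siSLC25A1 was lost without siControl replicate 1 (-0.25), 2 (-0.22) or 3 (-0.27) or siSLC25A1 replicate 1 or 3 (-0.23 each). The ESRRA call in siSLC25A1 was lost without siControl replicate 1 (-0.13), 2 (-0.14) or 3 (-0.12), siSLC25A1 replicate 1 (-0.11) or 2 (-0.13) or siACLY replicate 1 (-0.13), and with no filter on low counts (-0.14). Whether these regulators bear on the members was not tested.

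For the 3 members with the widest range over the groups, the genes most like them over the 12 libraries were found among 9912 genes that averaged 5 CPM or more, by the root mean square (RMS) difference of centred log2 levels. For IDH3A they were KLHL21, an adaptor of a ubiquitin ligase (RMS difference 0.066), and TMBIM1, a membrane protein (0.067), with log2 fold changes of -0.64 and -0.55 in siACO1. For SUCLG1 they were CYCS, which encodes cytochrome c (0.046), and SRM, which encodes spermidine synthase (0.050), with log2 fold changes of -0.25 and -0.34 in siACLY. For CS they were ADAM15, a membrane protease (0.034), and MRPL3, a protein of the mitochondrial ribosome (0.037), whose log2 fold changes in siSLC25A1, siACLY and siACO1 were -0.22, -0.21 and -0.30, and -0.13, -0.18 and -0.28. This likeness is a description over shared libraries.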

How the data were processed

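RNA of MiaPaCa-2 cells was sequenced in 12 libraries, 3 in each of 4 siRNA groups taken from the sample titles. The authors deposited raw read counts per gene, whole numbers with no normalization. The submitters' processing notes name CASAVA, FastQC, Trim Galore, STAR 2.7.0e and DESeq2 and the builds GRCm39 and GRCh38, with no role or order. The identifiers are human Ensembl genes. The counting tool, annotation release and use of strand are not given in the sources used here. Reads of overlapping genes or near-identical copies may therefore be split or lost, so overlap and shared 31-base stretches were computed from GENCODE 29, and a gene was treated as uncertain from 20% of its exon bases or stretches. SDHD, IDH3A and its overlapping neighbour ACSBG1 passed that limit.

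Symbols matched 62700 identifiers (89.4%). Genes were filtered with filterByExpr, which kept 16197 of 32582 with counts, scaled with TMM and fitted over all 12 libraries with edgeR 4.0.16 (robust quasi-likelihood, R 4.3.3, limma 3.58.1), without a block. Tests were two-sided F tests of the 6 group comparisons, adjusted by Benjamini-Hochberg, called at 0.05. Levels per kb used GENCODE's principal transcript. The 5 ratios were tested by exact permutation of the one-way F statistic of the log2 ratios over the 4 groups. With 3 libraries against 3, such a test could not go below 0.1. Library totals are given in the report and limit only counting error; the common biological coefficient of variation was 4.89%. The alternatives were median-of-ratios factors, library totals, DESeq2 1.42.0, no filter, a minimum of 10 counts, the compared groups alone, a replicate block, and leaving out each library.

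The members and lists were chosen with earlier results of these data known. The genes named are the members, the targets, list genes called against siControl, NRF1 for its motif, and the 2 genes most like each of the 3 members with the widest range. EPCAM, CDH1 and other markers, and the overlapping ACSBG1, CIB2 and SSR4, are named as checks, and DLST, DLD, SDHB and SDHD in siACO1 because their calls depended on 1 library, after their values were seen. The fit was tested on simulated data.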

Additional observations from a re-analysis of the deposited data

How the results depend on the processing

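Against siControl, the calls of CS in all 3 knockdowns, of IDH1 and IDH2 in siSLC25A1, of IDH2 and SUCLG1 in siACLY, and of IDH3A and SUCLG1 in siACO1 held under all 7 alternative settings and without each library in turn, as did all 5 ratio tests, under leaving out each library and a replicate block. IDH3A in siACO1 ranged from -0.68 to -0.61 without each library. The number of members called in siACLY ranged from 3 to 5 (3 without siControl replicate 3 or siACLY replicate 2). In siACO1 it was 3 to 5 (5 without siACO1 replicate 3), and 1 to 2 between siACLY and siACO1, where it was 2 with library totals. The other cycle genes called in siACO1 ranged from 3 to 8 without each library (8 without siACO1 replicate 3) and were 2 with library totals against 4, beside a shift of the median log2 fold change of all genes from 0.006 to 0.055. Signs turned only for values near 0 that were called under no setting: FH in siSLC25A1 (0.00 without siControl replicate 1, -0.03 without siSLC25A1 replicate 1), IDH3A in siACLY (0.02 with library totals), SUCLG1 in siSLC25A1 (-0.03 to 0.05 without each library; 0.00 with library totals and without siControl replicate 1 or 2, 0.05 without siSLC25A1 replicate 3), SUCLG2 in siACLY (0.03 with library totals, 0.00 with a minimum of 10 counts, and -0.04 to 0.01 without each library, the last without siACLY replicate 2) and SUCLG2 in siACO1 (0.04 with library totals, and -0.07 to 0.03 without each library, with 0.00 and 0.03 without siACO1 replicates 1 and 2). Except where stated, the cause was not tested.

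The groups share replicate numbers, but nothing in the labels ties them to a shared source, and the correlations did not meet the bar of over 0.1 in every pair, so they were not treated as pairs: libraries of the same number had correlations of deviations between -0.11 and 0.23 (median 0.03, 5 of 18 over 0.1), against -0.22 to 0.19 for different numbers (median -0.01, 4 of 36 over 0.1), and 2 of 12 libraries correlated best with their own number in every group. With the replicate block, 5, 5 and 3 members were called in siSLC25A1, siACLY and siACO1 and 4, 6 and 1 between siSLC25A1 and siACLY, siSLC25A1 and siACO1, and siACLY and siACO1. SUCLG2 in siSLC25A1 was called with the block (adjusted p 0.0444). Each of the 5 ratios had an exact permutation p of 0.00174 under the block, the smallest its 576 assignments allow. With this spread, standard errors of the members were 0.04 to 0.06, and changes of more than that size could still be missed. Against siControl, IDH3G at 0.13 in siACLY was called, while IDH3A (0.13) and SUCLG2 (-0.13) in siSLC25A1 were not. A member that was not called is therefore not shown to be unchanged.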
